A study of Homo sapiens with 15 samples.

Results

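A set of 8 of the 18377 genes measured was described: RNF157, SFT2D2, KRT80, DDAH1, ANKFY1, NRBP1, CCDC80 and MGAT4A. They were chosen from earlier results on these same arrays, because their level was lower with a scrambled microRNA mimic than in untransfected cells and higher again with a microRNA mimic. The values that chose them were the scrambled minus untransfected and the mimic minus scrambled differences, so these are given as a description. Where they are said to have passed limma's threshold, the count only describes the genes, beside the share of all genes that passed, and supports nothing. Mimic minus untransfected is the sum of the differences that chose the genes, and it is treated in the same way. The question was whether each rise with a mimic over the scrambled control was a return to the untransfected level.

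PC3 and DU145 are established lines of human prostate cancer, from a bone and a brain metastasis. Cells of each line stayed untransfected or received a mimic at 20 nM by lipid transfection, which was scrambled (no. 2 in the labels), miR-224 or miR-452, and RNA was taken at 48 h. All grew with 10% serum. For transfected cells the labels give a medium change 6 h after transfection, and they name no other treatment or genetic change. Whether untransfected cells also received the lipid reagent or a medium change is not stated. Transfection, the medium change and the scrambled sequence therefore cannot be told apart in the scrambled minus untransfected difference. There were 15 arrays, 8 of PC3 and 7 of DU145. Groups held 2 arrays. Scrambled DU145 cells had only 1, because the submitters had left out another for bad performance, and its spread was taken from the rest of that line. The labels do not say whether 2 arrays of a group came from separate cultures, so the errors measure only the spread between these arrays.

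A microRNA mimic is a synthetic RNA duplex that enters the Argonaute complex as a natural microRNA would and lowers messenger RNAs that pair with its seed, bases 2 to 8 from the 5′ end. A scrambled mimic is a control of shuffled sequence that is meant to have no natural targets. Where a gene is lower with the control than in untransfected cells, the mimic minus scrambled difference is measured from that lowered level. The natural mature forms, from RefSeq (GRCh38.p14), are shown with the seed in capitals, because the mimics were made after these microRNAs. The labels do not state which arm each mimic copied, so both arms are given. Their hairpins lie near each other on the minus strand of chromosome X, with hsa-miR-224-5p at chrX:151958628-151958652 and hsa-miR-452-5p at chrX:151959678-151959699.
hsa-miR-224-5p: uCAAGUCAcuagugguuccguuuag
hsa-miR-224-3p: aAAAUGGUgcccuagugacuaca
hsa-miR-452-5p: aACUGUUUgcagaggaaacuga
hsa-miR-452-3p: cUCAUCUGcaaagaaguaagug
No 2 of these 4 mature forms share a seed.

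The 8 genes fall into different branches of cell biology. SFT2D2, ANKFY1 and MGAT4A belong to membrane traffic and the Golgi apparatus, and RNF157 and NRBP1 to protein ubiquitylation. KRT80 encodes a keratin of the epithelial skeleton, DDAH1 an enzyme of arginine and nitric oxide metabolism, and CCDC80 a secreted matrix protein. A promoter window of 300 bases around a gene start was found in RefSeq for 6 of the 8 genes, with 9 windows in all. The windows differed widely in CG count, so the highest and the lowest are shown, each with CG in capitals. The RNF157 window, chr17:76240444-76240743 on the minus strand, held 56 CG, and the CCDC80 window, chr3:112641094-112641393 on the minus strand, held 2, against a median of 14 over 35116 promoter windows.
RNF157: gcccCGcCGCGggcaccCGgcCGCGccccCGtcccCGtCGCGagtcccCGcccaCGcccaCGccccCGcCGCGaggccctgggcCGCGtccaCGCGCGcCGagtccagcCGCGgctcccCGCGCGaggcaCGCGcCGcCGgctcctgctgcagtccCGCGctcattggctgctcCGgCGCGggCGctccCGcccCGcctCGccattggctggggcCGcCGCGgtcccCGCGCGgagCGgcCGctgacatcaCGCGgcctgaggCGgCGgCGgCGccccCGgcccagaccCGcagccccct
CCDC80: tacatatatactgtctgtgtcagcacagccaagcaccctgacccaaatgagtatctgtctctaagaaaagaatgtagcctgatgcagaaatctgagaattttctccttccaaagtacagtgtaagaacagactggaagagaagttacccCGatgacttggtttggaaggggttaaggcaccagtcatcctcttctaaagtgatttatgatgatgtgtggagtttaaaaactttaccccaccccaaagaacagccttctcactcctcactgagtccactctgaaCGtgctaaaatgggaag
The word TATAAA on either strand was in 1 of the 9 windows, one of the 3 of DDAH1, and in 11.5% of all windows.

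Levels are the deposited log2 values, in which 1 unit is a doubling. Differences are given ± the standard error from limma, fitted over all 18377 genes of a line. A gene passed, and is said to have risen or fallen, at a Benjamini-Hochberg adjusted p under 0.05. A mimic level was called within the untransfected level where the 95% interval of mimic minus untransfected lay wholly inside -0.5 to 0.5, a 1.41-fold margin. It was called above or below where the interval excluded 0 and reached past the margin, and not settled otherwise. DU145 and PC3 arrays were normalized separately, so levels are not compared between the lines. The mimic minus scrambled and scrambled minus untransfected differences share the scrambled arrays, and their opposite signs are therefore not independent. In whole-culture RNA, fewer cells expressing a gene and less RNA per cell cannot be told apart.

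Array medians ran from 6.94 to 7.05 in PC3 and from 6.51 to 6.67 in DU145. Replicate arrays correlated across all features of the array at 0.992 to 0.998. Across genes, the single DU145 scrambled array had a mean correlation of 0.986 with the other DU145 arrays, inside their range of 0.983 to 0.989. The epithelial markers KRT8, KRT18, KRT19 and KRT7 stood above percentile 95 of all genes in both untransfected lines. The other 5 epithelial markers stood lower, from percentile 40.4 (CDH3) to 68.3 (CLDN4) in PC3 and from 50.6 (CLDN4) to 96.5 (CDH3) in DU145. Of the 4 prostate luminal genes measured, KLK3, KLK2 and ACP3 stood at percentiles 27, 30.9 and 12.5 in PC3 and 19.6, 28 and 9.8 in DU145, and STEAP2 at 73 and 77.1. Of 9 epithelial markers, 1 was lower with the scrambled mimic in PC3 and 2 in DU145. None of 6 fibroblast markers was lower in either line. In PC3 1 of the 6 was higher, and of 5 endothelial markers 1 was lower and none higher. Of 5 leukocyte and 5 neuroendocrine markers measured, 1 of each was higher in PC3 and none lower. In DU145 1 leukocyte marker and 1 of the 4 prostate luminal genes were higher, and none of either list was lower.

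With the scrambled mimic, 7 of the 8 genes fell in PC3 and all 8 fell in DU145. Over all genes 10.9% fell in PC3 and 9.22% in DU145, and nothing is read from the excess because this difference chose the genes. The median difference of the 8 was -0.63 in PC3 and -1.02 in DU145, against 0.00 and 0.03 over all genes. MGAT4A did not pass in PC3. Without 1 PC3 untransfected array (b), 4 of the 8 passed. Without 1 DU145 untransfected array none of the 8 passed (b) or 2 did (c), while the differences without array b still ran from -1.58 to -0.36 and all 8 were lower at an unadjusted p under 0.05 in limma. The share of all genes that passed with an array left out was not counted, so no lost call is read as particular to the 8 genes. All scrambled arrays lay below every other array of the line for 7 genes in PC3, 8 in DU145 and 7 in both lines. This held for 8.79%, 11.2% and 3.52% of all genes.

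**Figure D1:**
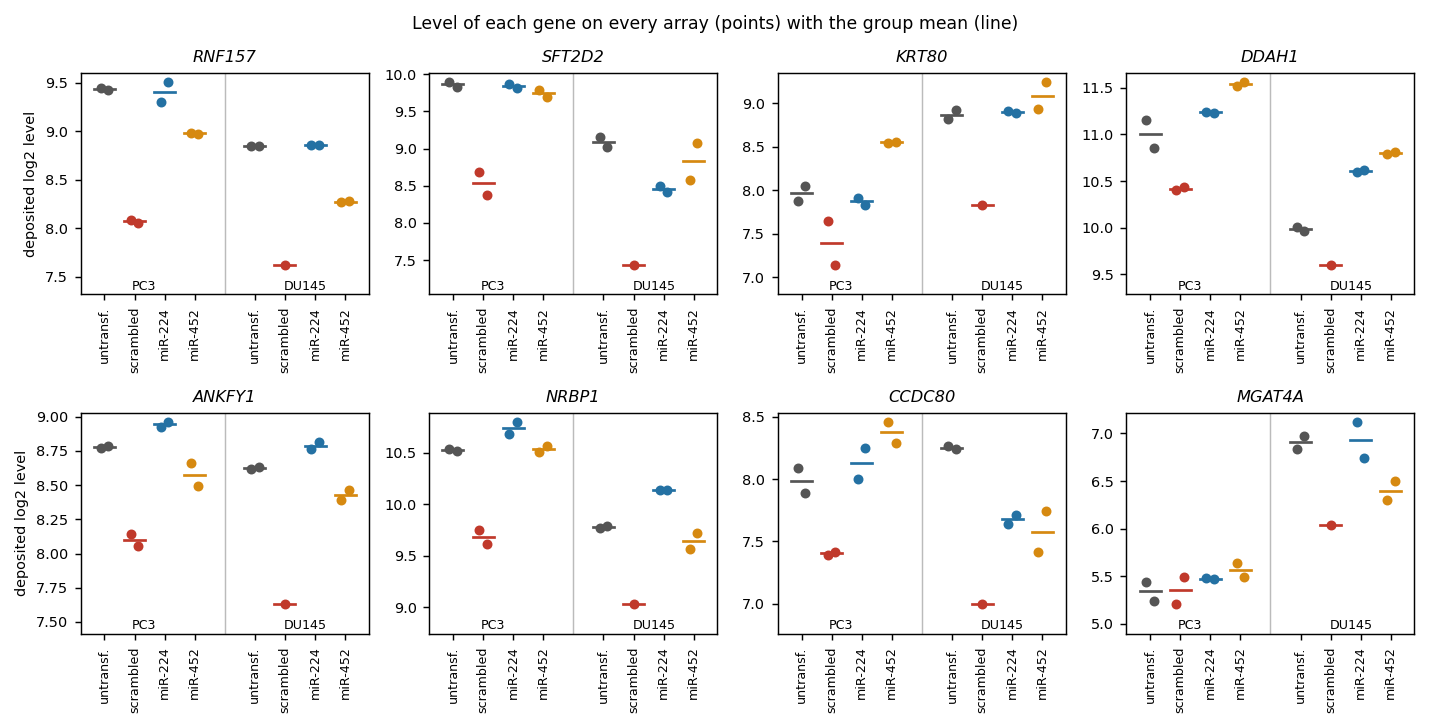
The deposited log2 level of each of the 8 genes on every array, with PC3 on the left and DU145 on the right of each panel; points are arrays and short lines are group means. The scrambled arrays are the lowest of their line except for MGAT4A in PC3, where the groups overlap between 5.21 and 5.64.

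SFT2D2, a membrane protein related to a yeast factor of vesicle transport to the Golgi, had one of the largest falls of any gene. SFT2D2 read 9.89 and 9.83 on the untransfected PC3 arrays, 8.69 and 8.38 on the scrambled, 9.82 and 9.87 on the miR-224 and 9.79 and 9.70 on the miR-452 arrays. In DU145 SFT2D2 read 9.15 and 9.02 untransfected, 7.43 scrambled, 8.41 and 8.49 with miR-224, and 9.08 and 8.57 with miR-452. The scrambled arrays stood apart below all others in both lines, and in DU145 both miR-224 arrays also lay below both untransfected arrays. It fell by 1.33 ± 0.10 in PC3, the 3rd largest fall of 18377 genes, and by 1.65 ± 0.18 in DU145, the largest. In PC3 the rises of 1.31 ± 0.10 with miR-224 and 1.21 ± 0.10 with miR-452 covered 98.9% and 91.1% of the fall. Both ended within the untransfected level, at intervals of -0.23 to 0.20 and -0.34 to 0.10. In DU145 the miR-224 level remained below it by 0.31 to 0.96, with 61.6% of the fall covered. The DU145 miR-452 level was not settled (-0.58 to 0.07), and its 2 arrays lay far apart.

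ANKFY1 encodes an early endosome protein with ankyrin repeats and a FYVE domain, which binds a phosphoinositide of endosomal membranes. ANKFY1 read 8.77 and 8.78 on the untransfected PC3 arrays, 8.14 and 8.06 on the scrambled, 8.96 and 8.93 on the miR-224 and 8.66 and 8.49 on the miR-452 arrays. In DU145 ANKFY1 read 8.62 and 8.63 untransfected, 7.63 scrambled, 8.81 and 8.76 with miR-224, and 8.47 and 8.39 with miR-452. Its order was the same in both lines, with scrambled lowest, then miR-452, untransfected and miR-224, and no 2 groups overlapped. The fall was -0.68 ± 0.08 in PC3 and -0.998 ± 0.10 in DU145. All 4 mimic levels ended within the untransfected level, the miR-224 levels at differences of 0.17 and 0.16 and the miR-452 levels at -0.20 and -0.20 in PC3 and DU145. The miR-452 intervals nevertheless lay below 0, at -0.38 to -0.02 in PC3 and -0.38 to -0.01 in DU145. With miR-452, 70.4% of the fall was covered in PC3 and 80.4% in DU145. The steps from miR-452 to untransfected and from untransfected to miR-224 did not pass in either line.

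MGAT4A encodes an N-acetylglucosaminyltransferase that adds a branch to N-linked glycans in the Golgi. MGAT4A read 5.44 and 5.25 on the untransfected PC3 arrays, 5.21 and 5.50 on the scrambled, 5.47 and 5.48 on the miR-224 and 5.64 and 5.49 on the miR-452 arrays. Its untransfected PC3 level was at percentile 7.3 of all genes, and the scrambled minus untransfected difference was 0.01 ± 0.11, with an interval of -0.23 to 0.24. In DU145 MGAT4A read 6.83 and 6.98 untransfected, 6.04 scrambled, 6.74 and 7.12 with miR-224, and 6.498 and 6.30 with miR-452. There the untransfected level was at percentile 49.3, and it fell by 0.86 ± 0.16. It rose by 0.89 ± 0.16 with miR-224, to within the untransfected level (-0.27 to 0.32). The miR-452 level was 0.36 above scrambled without passing, and its interval lay below untransfected at -0.80 to -0.21.

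RNF157, a RING finger E3 ubiquitin ligase, returned with miR-224 and only in part with miR-452, in both lines. RNF157 read 9.45 and 9.43 on the untransfected PC3 arrays, 8.09 and 8.06 on the scrambled, 9.50 and 9.30 on the miR-224 and 8.99 and 8.97 on the miR-452 arrays. In DU145 RNF157 read 8.85 and 8.85 untransfected, 7.62 scrambled, 8.86 and 8.85 with miR-224, and 8.28 and 8.27 with miR-452. The miR-452 arrays lay between the scrambled and the untransfected arrays in both lines, with no overlap on either side. The fall was -1.36 ± 0.08 in PC3 and -1.23 ± 0.10 in DU145, the 2nd and 3rd largest of all genes. With miR-224 the interval against untransfected was -0.22 to 0.15 in PC3 and -0.17 to 0.19 in DU145. With miR-452 it was -0.64 to -0.27 in PC3 and -0.76 to -0.40 in DU145, and 66.4% and 53% of the fall were covered.

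NRBP1, a pseudokinase that serves as a substrate receptor of a ubiquitin ligase, read 10.54 and 10.52 on the untransfected PC3 arrays, 9.75 and 9.61 on the scrambled, 10.80 and 10.69 on the miR-224 and 10.51 and 10.56 on the miR-452 arrays. In DU145 NRBP1 read 9.77 and 9.79 untransfected, 9.03 scrambled, 10.14 and 10.14 with miR-224, and 9.72 and 9.57 with miR-452. The miR-224 arrays were the highest of each line. It fell by 0.84 ± 0.08 in PC3 and by 0.75 ± 0.11 in DU145. With miR-452 it was within the untransfected level in PC3 (-0.17 to 0.19) and in DU145 (-0.34 to 0.06). With miR-224 it was within in PC3 (0.04 to 0.40) and above in DU145 (0.16 to 0.56), where 148% of the fall was covered.

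KRT80, a type II keratin, read 7.88 and 8.05 on the untransfected PC3 arrays, 7.64 and 7.14 on the scrambled, 7.83 and 7.91 on the miR-224 and 8.55 and 8.55 on the miR-452 arrays. In DU145 KRT80 read 8.82 and 8.92 untransfected, 7.83 scrambled, 8.89 and 8.91 with miR-224, and 9.24 and 8.93 with miR-452. The PC3 scrambled arrays lay far apart, and miR-452 arrays were the highest in both lines. The fall was -0.57 ± 0.14 in PC3 and -1.03 ± 0.13 in DU145. The PC3 fall no longer passed without either untransfected array or without scrambled array c. The miR-224 level was within the untransfected level in PC3 (-0.39 to 0.20) and DU145 (-0.21 to 0.28). The miR-452 level was above it in PC3 by 0.29 to 0.88, the rise being 203% of the fall, and within it in DU145 (-0.03 to 0.46).

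DDAH1 is an enzyme that hydrolyses asymmetric dimethylarginine, an inhibitor of nitric oxide synthases. DDAH1 read 11.15 and 10.86 on the untransfected PC3 arrays, 10.41 and 10.43 on the scrambled, 11.23 and 11.24 on the miR-224 and 11.52 and 11.56 on the miR-452 arrays. In DU145 DDAH1 read 10.00 and 9.96 untransfected, 9.60 scrambled, 10.62 and 10.60 with miR-224, and 10.82 and 10.79 with miR-452. The order was scrambled, untransfected, miR-224 and miR-452 in both lines, without overlap. DDAH1 fell by 0.58 ± 0.10 in PC3 and by 0.39 ± 0.10 in DU145, where its fall was the smallest of the 8 and ranked 2172 of 18377 genes. Its rises over scrambled went past the untransfected level in 3 of 4 cases. The miR-452 interval against untransfected was 0.33 to 0.74 in PC3 and 0.64 to 1.00 in DU145. The miR-224 interval was 0.44 to 0.81 in DU145, and 0.02 to 0.44, within the margin, in PC3. In DU145 the rise with miR-452 was 312% of the fall and that with miR-224 was 263%.

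CCDC80, a secreted protein of the extracellular matrix, read 8.09 and 7.89 on the untransfected PC3 arrays, 7.39 and 7.42 on the scrambled, 8.25 and 8.0045 on the miR-224 and 8.46 and 8.29 on the miR-452 arrays. In DU145 CCDC80 read 8.27 and 8.24 untransfected, 6.99 scrambled, 7.71 and 7.64 with miR-224, and 7.74 and 7.41 with miR-452. In PC3 the miR-452 arrays were the highest, and in DU145 the untransfected arrays were. The fall was -0.58 ± 0.11 in PC3 and -1.26 ± 0.14 in DU145, the 226th and the 2nd largest of all genes. The PC3 levels ended within untransfected with miR-224 (-0.09 to 0.37) and above it with miR-452 (0.16 to 0.62). The DU145 levels ended below it, at -0.83 to -0.33 with miR-224 and -0.93 to -0.42 with miR-452. The DU145 rise passed with miR-224 (0.68 ± 0.14) and not with miR-452 (0.58 ± 0.14).

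Against scrambled, 7 of the 8 genes rose with miR-224 in PC3 (12.1% of all genes), 8 in DU145 (0.631%), 7 with miR-452 in PC3 (2.89%) and 6 in DU145 (0.577%). These differences also chose the genes, and nothing is read from the counts. Together they made 28 cases of a gene that fell and then rose with a mimic. In 17 of the 28 the mimic level was within the untransfected level, in 6 above it, in 4 below it and in 1 not settled. The cases are not independent, because those of a line share its untransfected and scrambled arrays and 1 gene gave up to 4. In PC3 with miR-224 all 7 genes that fell and rose were within. With miR-452 in PC3, SFT2D2, ANKFY1 and NRBP1 were within, KRT80, DDAH1 and CCDC80 above, and RNF157 below. In DU145 4 of 8 cases were within with miR-224 and 3 of 6 with miR-452. ANKFY1 alone of the 8 was within in all 4 comparisons after a fall and a rise, though both its miR-452 intervals lay below 0. Over all genes 5.26% fell and rose with miR-224 in PC3 and 1.35% with miR-452, and 0.49% did with each mimic in DU145. Their split into within, above and below was not counted. The split of the 28 cases is therefore not set against all genes.

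**Figure D2:**
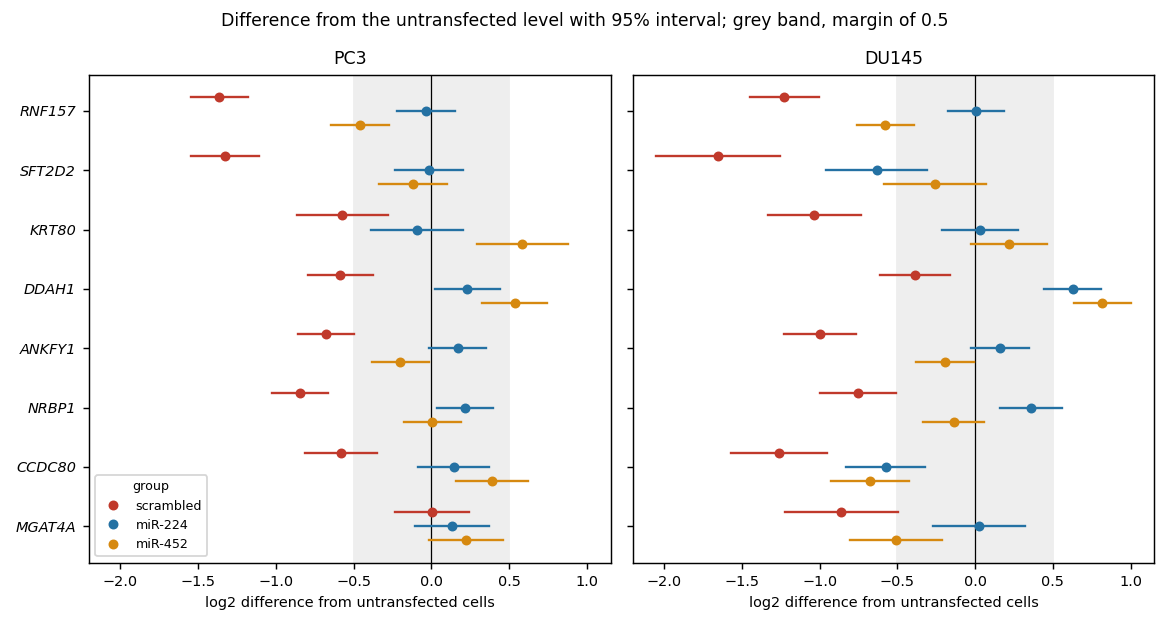
Log2 difference from untransfected cells of the scrambled (red), miR-224 (blue) and miR-452 (orange) groups for each gene in PC3 (left) and DU145 (right); points are estimates, bars 95% intervals from limma, and the grey band the margin of 0.5 on either side. All PC3 miR-224 intervals lie inside the band, while DDAH1 in DU145 lies to its right at 0.63 and 0.82 and CCDC80 to its left at -0.58 and -0.68.

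Over all 8 genes, MGAT4A in PC3 included, the intervals of 8 with miR-224 and 4 with miR-452 lay within the margin in PC3. Most genes do so, at 86.5% and 77.8% of all genes. In DU145 the counts were 4 with miR-224 and 3 with miR-452, where 67.8% and 64.2% of all genes were within. Being within the margin is therefore the usual state of a gene in these arrays. Without the PC3 untransfected array b, or without the PC3 miR-224 array a, 4 genes were within with miR-224. A margin of 0.25 left 2 and 1 of the 8 in PC3 with miR-224 and miR-452, and 1 and 0 in DU145.

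By the test against untransfected cells, none of the 8 was lower with miR-224 in PC3 (6.85% of all genes) and none higher (2.84%), by limma. At an unadjusted p under 0.05, 2 were higher (DDAH1 and NRBP1) and 0 lower. With miR-452 in PC3, 1 was lower (14.1%) and 3 were higher (8.12%). With miR-224 in DU145, 2 were lower (15.5%) and 2 higher (5.44%). With miR-452 in DU145, 3 were lower (19.9%) and 1 was higher (8.31%). For the PC3 miR-224 comparison a test that was not passed does not show equal levels, and the intervals above bound the differences at 0.44 on the log2 scale. In PC3 12 of 13 measured interferon-response genes were higher with miR-452 than with scrambled (median 1.18), and none was in DU145 by limma, where 2 were at an unadjusted p under 0.05. Over all genes the shares higher with miR-452 than with scrambled were 2.89% in PC3 and 0.577% in DU145. The interferon list holds antiviral genes such as MX1 and IFIT1, and its part in the PC3 miR-452 levels of the 8 genes was not tested.

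The direct comparison of the mimics needs neither the scrambled nor the untransfected level. It was not itself used to choose the genes, but it is the difference of the mimic minus scrambled values that were, and shares the mimic arrays with them. In PC3 miR-224 gave higher levels of 2 of the 8 genes (12.5% of all genes) and lower levels of 2 (5.99%). RNF157 was higher with miR-224 than with miR-452 by 0.42 ± 0.08 (limma, adjusted p = 0.00479), and ANKFY1 by 0.37 ± 0.08 (adjusted p = 0.00929). KRT80 differed by -0.68 ± 0.14 (adjusted p = 0.00462) and DDAH1 by -0.30 ± 0.10 (adjusted p = 0.0465), both lower with miR-224. In each of these 4 genes both arrays of one mimic lay above both of the other. The other PC3 differences did not pass, with intervals of -0.12 to 0.32 for SFT2D2, 0.03 to 0.39 for NRBP1, -0.48 to -0.02 for CCDC80 and -0.33 to 0.15 for MGAT4A. Without miR-224 array b only KRT80 passed in PC3, and without miR-452 array c only RNF157 and KRT80. The DDAH1 call was lost on leaving out any 1 of the 4 mimic arrays, on subtracting 16 before the logarithm, and with every array feature tested alone.

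In DU145 miR-224 gave higher levels than miR-452 of 4 of the 8 genes (3.53% of all genes) and lower levels of none (2.38%). RNF157 was higher by 0.58 ± 0.08 (limma, adjusted p = 0.00403), NRBP1 by 0.50 ± 0.09 (adjusted p = 0.0115), MGAT4A by 0.53 ± 0.13 (adjusted p = 0.0469) and ANKFY1 by 0.36 ± 0.08 (adjusted p = 0.037). The 2 ubiquitin-related genes and ANKFY1 thus had both miR-224 arrays above both miR-452 arrays, as did MGAT4A. SFT2D2 (-0.38) and DDAH1 (-0.19) were the 2 genes lower with miR-224 at an unadjusted p under 0.05, and neither passed. Without untransfected array b or c, or without miR-224 array c, 2 genes passed, and without miR-224 array a RNF157 alone did. The MGAT4A call was also lost under quantile normalization within the line, on subtracting 16 and with every feature tested alone, and the ANKFY1 call on subtracting 16. Both were lost without miR-452 array a. RNF157 in DU145 and KRT80 in PC3 kept their call without each array in turn. RNF157 and ANKFY1 were the genes that passed in both lines, both higher with miR-224.

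The change with the scrambled mimic was set between the lines in a fit of all 15 arrays. It is built from the differences that chose the genes and rests on 1 DU145 scrambled array, so it is a description. None of the 8 genes passed by limma (0.207% of all genes did), and 4 were lower in DU145 at an unadjusted p under 0.05. The estimates for PC3 minus DU145 ran from -0.20 ± 0.14 for DDAH1 to 0.68 ± 0.18 for CCDC80 and 0.87 ± 0.21 for MGAT4A.

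In all, 6 of the 8 genes passed all the steps in both lines, which are the fall with scrambled and a rise with each mimic. CCDC80 and MGAT4A were the exceptions. Over all genes 21 passed (0.114%). These steps chose the genes, so nothing is read from the count of 6. The same calls were made for 15 further genes, while 849 genes fell with scrambled in both lines. The 15 were AXL, CMAS, CSNK2B, CTDSP2, CTDSPL2, EIF2S3, HYCC2, NFIA, RDH11, SEC24C, SLC25A24, SLC4A1AP, SLC7A11, UBE2R2 and USP38. AXL, a receptor tyrosine kinase, read 11.71 and 11.77 on the untransfected PC3 arrays, 10.32 and 10.16 on the scrambled, 11.75 and 11.88 on the miR-224 and 11.57 and 11.55 on the miR-452 arrays. Its PC3 fall of -1.50 ± 0.09 was the largest of all genes that fell in both lines. The falls of the 15 ran from -1.50 to -0.34 in PC3 and from -1.21 to -0.54 in DU145. Their mimic levels were within the untransfected level in 11 of 15 genes with miR-224 and 14 with miR-452 in PC3, and in 12 and 14 in DU145. Of the 21 genes, DDAH1 went farthest past untransfected, at 0.82 ± 0.08 with miR-452 in DU145. KRT80 at 0.59 ± 0.14 with miR-452 in PC3 was close to the highest of the 15, SLC4A1AP at 0.54 ± 0.12 with miR-224 in PC3. SLC7A11 also passed above untransfected with miR-224 in PC3, at 0.49 ± 0.07. Against untransfected PC3 cells, 2 of the 15 were higher and 0 lower with miR-224, and 0 were higher and 2 lower with miR-452. In DU145 0 were higher and 2 lower with miR-224, and 1 was higher and 3 lower with miR-452. AXL was among those lower with miR-452 in DU145, at -0.29 ± 0.08.

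**Figure D3:**
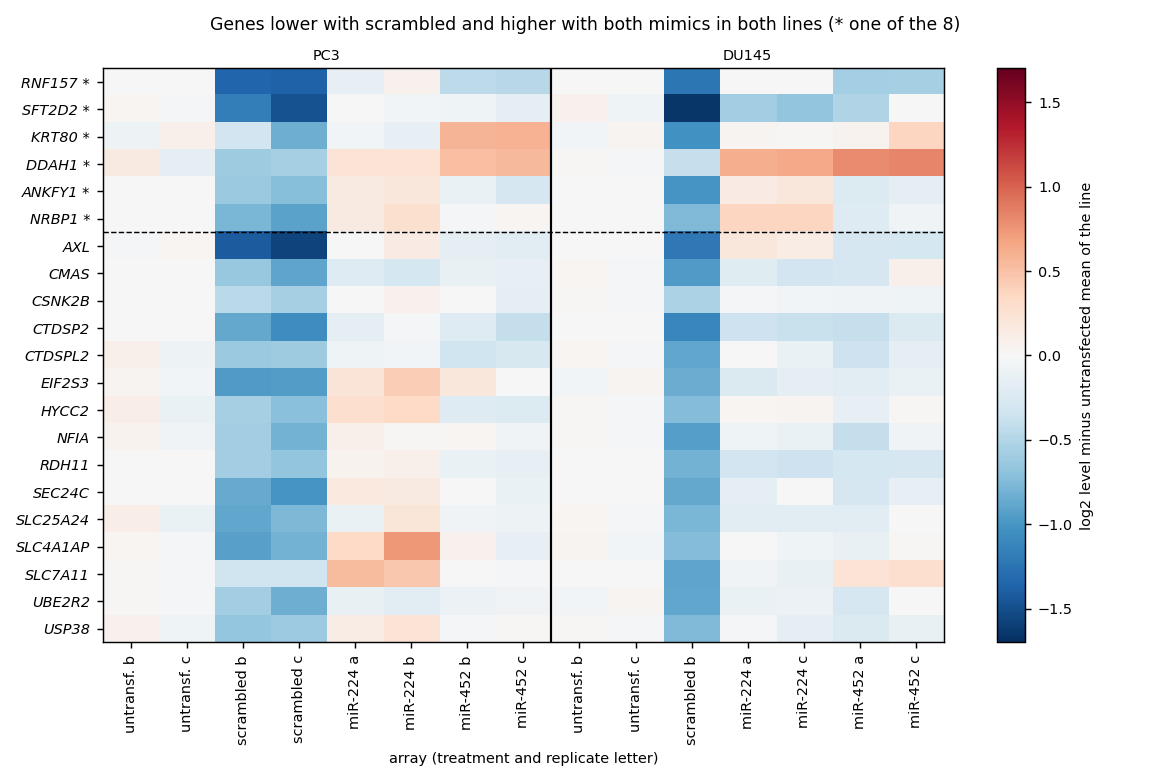
Log2 level on each array minus the untransfected mean of its line (colour) for the 21 genes that passed the fall and both rises in both lines; columns are arrays, the 6 starred genes above the dashed line belong to the 8 described. The scrambled columns are blue throughout, and DDAH1 turns red with both mimics in both lines.

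The genes with a pattern most like the mean of the 8 were sought among 1305 genes whose group means spanned at least 0.5 in both lines. Over the 15 arrays, each line centred on its own mean, the highest correlations were those of NFIA (0.98), USP38 (0.96), SEC24C (0.959), UBE2R2 (0.958) and CSNK2B (0.956). NFIA is a transcription factor, USP38 a deubiquitinase, SEC24C a cargo subunit of the COPII coat, UBE2R2 a ubiquitin-conjugating enzyme and CSNK2B the regulatory subunit of casein kinase 2. NFIA read 8.95 and 8.82 on the untransfected PC3 arrays, 8.29 and 8.08 on the scrambled, 8.96 and 8.90 on the miR-224 and 8.92 and 8.83 on the miR-452 arrays. All arrays but the scrambled lay close together for NFIA in PC3. The correlations rest on the few scrambled arrays and are a description. Among the 8, the correlation of each gene with the mean of the other 7 ran from 0.577 for MGAT4A and 0.669 for DDAH1 to 0.919 for NRBP1.

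Relatives and pathway partners of the 8 genes were looked up next. Of 81 measured, 12 (14.8%) were lower with the scrambled mimic and 3 higher in PC3, and 13 (16%) were lower and 2 higher in DU145. The lower shares stood somewhat above those of all genes, 10.9% and 9.22%, and this difference was not tested. Their median difference was -0.05 in PC3 and -0.04 in DU145. None of 4 RING finger ligases related to RNF157 passed by limma (1 in each line at an unadjusted p under 0.05), MGRN1 differing by 0.02 in PC3 and -0.01 in DU145. DDAH2, the other dimethylarginine hydrolase, differed by -0.07 in PC3 and 0.07 in DU145, and NRBP2 by -0.02 and -0.03, without passing. No keratin of 13 was lower in either line by limma or at an unadjusted p under 0.05, KRT7 differing by -0.09 and -0.17 and KRT78 by 0.17 in both, and KRT23 was higher in DU145 at 0.50. SFT2D1 was lower (-0.32) and SFT2D3 higher (0.30) in PC3, and neither passed in DU145. SRPX and SRPX2, matrix proteins related to CCDC80, did not pass in either line. MGAT4B, which makes the same glycan branch as MGAT4A, was higher in PC3 (0.39) and differed by 0.03 in DU145, and MGAT4C did not pass.

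Relatives that were lower in both lines numbered 8 of 81 (9.88%), against 849 of all 18377 genes (4.62%), a difference that was not tested. The early endosome list held 3 of them, ZFYVE16 at -0.90 in PC3 and -1.09 in DU145, ZFYVE9 at -0.44 and -0.67, and PIK3R4 at -0.29 and -0.60. ZFYVE16 and ZFYVE9 share the FYVE domain with ANKFY1, and PIK3R4 is a subunit of the kinase that makes the lipid it binds. Of the 16 genes of that list 4 were lower in PC3 and 5 in DU145, with EHD1 higher in DU145. The Golgi mannosidases of the glycan list, MAN2A1 (-0.73 and -0.63) and MAN1A2 (-0.32 and -0.55), were also lower in both lines. So were GOLT1B of vesicle transport (-0.62 and -0.58), the arginine methyltransferase PRMT3 (-0.35 and -0.66) and the cullin CUL4A (-0.34 and -0.53). In PC3 ZFYVE16 and MAN2A1 rose over scrambled with both mimics, by 0.78 and 1.00 with miR-224 and by 0.40 and 0.89 with miR-452. ZFYVE9 (0.648), MAN1A2 (0.535) and CUL4A (0.377) rose there with miR-224 and passed no rise with miR-452. PRMT3, GOLT1B and PIK3R4 passed no rise with either mimic in PC3. The PC3 intervals of GOLT1B lay above 0 with miR-224 (0.05 to 0.40) and miR-452 (0.02 to 0.37), as did that of PIK3R4 with miR-224 (0.065 to 0.446). None of the 8 relatives passed a rise in DU145 by limma (4 with miR-224 and 3 with miR-452 at an unadjusted p under 0.05). The largest DU145 estimate was 0.51 for ZFYVE16 with miR-452.

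**Figure D4:**
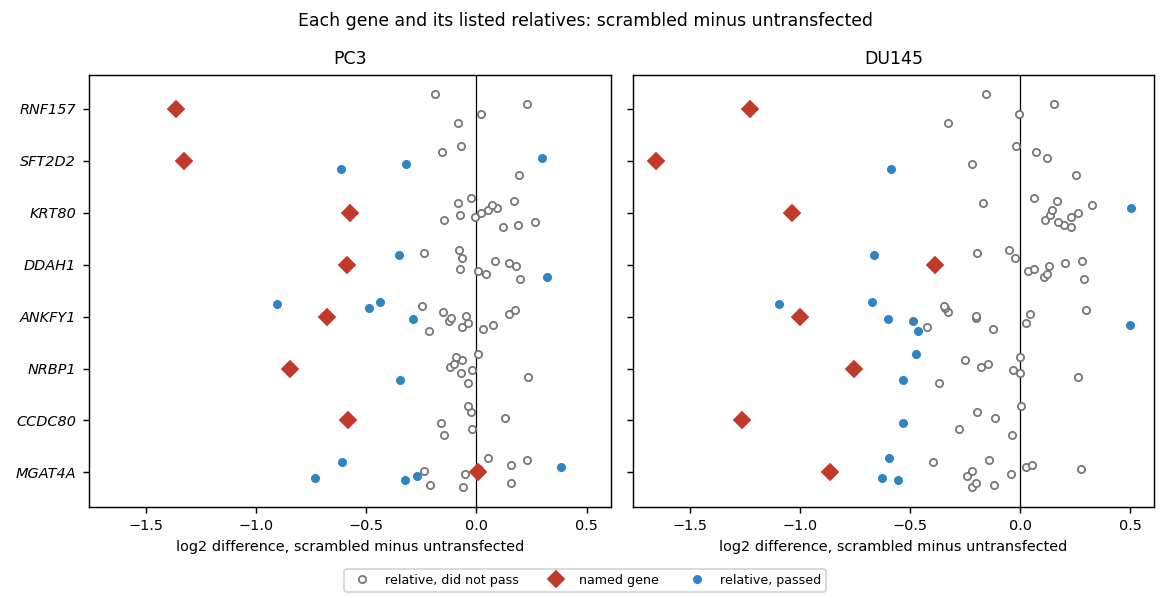
Log2 difference of scrambled minus untransfected for each of the 8 genes (red diamonds) and its listed relatives (circles, filled where the difference passed) in PC3 (left) and DU145 (right). Most circles lie near 0, and ZFYVE16 in the ANKFY1 row is the lowest relative in both lines, at -0.90 and -1.09.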

How the data were processed

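Per the series design text, the authors hybridized total RNA to Affymetrix Human Gene 1.0 ST arrays and deposited log2 levels made with RMA16 in GeneSpring GX 11.0, each line normalized separately. Per the labels, 100 ng of RNA was labelled for each array, and medium was changed 6 h after transfection. Whether RMA16 adds 16 before the logarithm, which would understate folds of weak genes, and the genome build are not given in the sources used here. The deposited log2 values were averaged over features of 1 symbol (19310 of 28869 features, 18377 genes). Each of the 8 genes had 1 feature. With limma 3.58.1 in R 4.3.3, 4 group means were fitted per line, leaving 4 residual degrees of freedom for PC3 and 3 for DU145, with empirical Bayes moderation. Tests were two-sided, Benjamini-Hochberg adjusted over all genes, threshold 0.05. The code of the fit was run on simulated data with independent normal noise. Such data cannot test shifts shared by arrays or arrays from the same culture, and nothing is read from them.

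The members and lists were chosen with earlier results of these data known. Named were the 8 genes, the closest relatives and those that passed, the 5 genes most like the mean of the 8 among those spanning at least 0.5 in both lines, and the 3 largest falls per line among genes falling in both. The examples among the 15 further genes were chosen after their values were seen. Alternatives were quantile normalization, 16 subtracted, a filter on low levels, single features, a joint fit, robust moderation, a replicate block, other margins, and each array left out.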

Additional observations from a re-analysis of the deposited data

Results flagged for a closer look

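CCDC80 and MGAT4A differed between the lines in where a mimic level stood against untransfected cells, by the interaction contrast of limma over all 15 arrays. The PC3 minus DU145 difference of miR-224 minus untransfected was 0.72 ± 0.16 (SE) for CCDC80 (adjusted p = 0.0236), from 0.14 in PC3 and -0.58 in DU145. For miR-452 minus untransfected it was 1.07 ± 0.16 for CCDC80 (adjusted p = 0.0025), from 0.39 in PC3 and -0.68 in DU145. For MGAT4A and miR-452 it was 0.73 ± 0.18 (adjusted p = 0.0476), from 0.22 in PC3, where the level was at percentile 7.3 of all genes, and -0.51 in DU145. These contrasts use no scrambled array, but the genes were chosen on values from the same mimic and untransfected arrays. They are built from mimic minus untransfected differences, which are sums of the differences that chose the genes. The calls are therefore a description, and the share of all genes that passed these contrasts is not given here. The other mimic minus untransfected differences of the 8 genes did not pass between lines, the nearest being SFT2D2 with miR-224 at 0.62 (adjusted p = 0.0724).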

How the results depend on the processing

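No value of the 8 genes that passed changed its direction under the alternatives run. Halving the margin to 0.25 changed the genes within the untransfected level from 8 to 2 (PC3, miR-224), 4 to 1 (PC3, miR-452), 4 to 1 (DU145, miR-224) and 3 to 0 (DU145, miR-452), and a margin of 0.75 gave 7 in PC3 with miR-452. Subtracting 16 before the logarithm took the DU145 genes that differed between the mimics from 4 to 2. For pairs of groups sharing both array letters, same-lettered deviations correlated across genes at -0.03, -0.15 and 0.27 in PC3 and -0.31 in DU145. The signs differed, so these values do not settle whether the letters pair the samples. PC3 miR-224 and the DU145 scrambled and untransfected arrays were in no such pair. In DU145 the scrambled array had letter b and the mimic arrays a and c, so each mimic minus scrambled difference there also compares unlike letters. With the letter as a replicate block, 2 of 4 genes differed between the mimics in PC3, and 3 of 8 and 2 of 6 rose over scrambled with miR-224 and miR-452 in DU145. Crossing the DU145 miR-452 letters, an alternative chosen after seeing the data, gave 5 and 3. Leaving out each array in turn gave 4 to 7 genes that fell in PC3 and 0 to 8 in DU145. It gave 6 to 7 that rose in PC3 with either mimic, and 5 to 8 with miR-224 and 4 to 7 with miR-452 in DU145. Genes within the margin numbered 4 to 8 and 3 to 4 in PC3 and 3 to 4 and 2 to 3 in DU145 for miR-224 and miR-452. Genes that differed between mimics numbered 1 to 4 in each line, and the change with the scrambled mimic differed between lines for 0 genes in every such fit. The shares of all genes that passed with the block or with an array left out were not counted. The only DU145 scrambled array cannot be left out, so every DU145 difference from scrambled rests on it. Signal over background is not given in the values used here, and 2 arrays a group limit the precision.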

Other observations

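DICER1, which encodes the enzyme that cuts microRNA precursors, was singled out after its values were seen, because it rose over scrambled and ended above the untransfected level with both mimics. Scrambled minus untransfected was -0.21 ± 0.10 (SE) in PC3, with an interval of -0.42 to -0.002, and -0.19 ± 0.11 in DU145, with an interval of -0.44 to 0.06. Neither passed by limma after adjustment, and the PC3 value had an unadjusted p of 0.048. Against untransfected cells it was higher in PC3 by 0.91 ± 0.10 with miR-224 (adjusted p = 0.000245) and by 0.75 ± 0.10 with miR-452 (adjusted p = 0.000608). In DU145 it was higher by 0.49 ± 0.09 (adjusted p = 0.00712) and 0.63 ± 0.09 (adjusted p = 0.00296). With scrambled against untransfected, 10.9% of all genes were lower in PC3 and 9.22% in DU145. Of 13 genes of the small RNA machinery, 3 were lower with scrambled than untransfected in each line and none was higher. DROSHA, which cuts primary microRNA transcripts, was lower in both, at -0.41 ± 0.11 in PC3 (adjusted p = 0.0308) and -0.59 ± 0.13 in DU145 (adjusted p = 0.026), as was the Argonaute gene AGO3 at -0.34 ± 0.08 (adjusted p = 0.0199) and -0.62 ± 0.12 (adjusted p = 0.0193).

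Some interferon-response genes also differed between scrambled and untransfected cells. Over all genes 10.9% were lower with scrambled in PC3 and 9.22% in DU145, and the list was not tested against these shares. In DU145 5 of 13 were lower, among them IFIT1 at -1.04 ± 0.12 (adjusted p = 0.0114) and RIGI at -0.82 ± 0.12 (adjusted p = 0.013), and none was higher. In PC3 2 were lower and 1 was higher, IFI44 standing at -0.61 ± 0.12 (adjusted p = 0.0117) and IFI44L at 0.42 ± 0.10 (adjusted p = 0.0192).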
